A study of Mus musculus with 36 samples.

Results

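The lipid and xenobiotic sensing nuclear receptors of the liver were followed here as 10 genes in 36 livers of male, adult C57BL/6J mice. They were Nr1i3 (Car), Nr1i2 (Pxr), Ppara, Rxra, Nr1h4 (Fxr), Nr1h3 (Lxr alpha), Hnf4a, Nr5a2 (Lrh-1), Nr0b2 (Shp) and Ahr. They were taken by name, as all probes whose gene name or accession stands for 1 of them, and the set itself was put together with earlier results of these data known. All 10 were found among the 13042 named genes of the authors' expression table, as 13 of its 21781 probes: 3 probes for Hnf4a, 2 for Rxra and 1 for each other gene.

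All mice started with a mild-high-fat diet (30% of energy as fat), for 3 weeks per the sample descriptions. The baseline group (t=0) was killed at that point, the control group (HF) stayed on the same diet for 12 more weeks, and the quercetin group (HF-Q) received it with 0.33% (w/w) of the plant flavonoid quercetin for those 12 weeks. Each group had 12 mice, fasted for at least 2 h, and no group carried a genetic change. The baseline mice were therefore 12 weeks younger as well as 12 weeks shorter on the diet, which cannot be told apart. Whole liver RNA of each mouse was hybridised in Cy5 against a Cy3-labelled pool of all samples.

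Nuclear receptors are transcription factors that a small molecule can switch on. Nr1i3 and Nr1i2 respond to drugs and other foreign compounds and drive genes of drug metabolism, Ppara responds to fatty acids and drives their oxidation, Nr1h4 responds to bile acids, and Nr1h3 to oxysterols, and each of these binds DNA together with Rxra. Hnf4a and Nr5a2 keep hepatocyte genes on, Nr0b2 lacks a DNA-binding domain and represses other receptors, and Ahr, a sensor of aromatic compounds, belongs to another protein family. Ligand binding and nuclear transport set much of their activity, and an array measures neither. In whole liver, fewer cells of a type and less RNA per cell cannot be told apart.

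All levels below are log2 Cy5 signals of the authors' table, in which every array has the same median of 8.9613. A log2 fold change is a difference of 2 group means on that scale, and a gene was called when its Benjamini-Hochberg adjusted p over all 21781 probes was under 0.05 in limma. Where a gene has several probes, the brightest stands for it. All 13 probes were well above background in Cy5 and unsaturated on all 36 arrays. Levels of different genes are not set against each other, since probes differ in brightness. The number of arrays limits the precision. On the array of quercetin replicate 2, 96.72% of spots were well above background in Cy5, against 56.42% to 67.35% on every other array. Control replicate 5 lay farthest from its group mean over all probes of the 36 arrays (root mean square deviation 0.501 on the log2 scale), followed by quercetin replicate 2 (0.347), control replicate 1 (0.332) and baseline replicate 4 (0.301), the farthest of its group. Results that rest on the farthest array of each group are also given without these 3 arrays, called the 3 arrays apart below, and control replicate 1 was left out on its own.

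Comparing quercetin with control mice, 1 of the 10 receptors was called, Nr1i3, which was higher with quercetin. The remaining 9 were not called, and 8 of their differences lay between -0.04 and 0.15 on the log2 scale, while Nr0b2 differed by -0.53. The share called over all genes by their brightest probe was 2.22% (1.14% higher and 1.08% lower), and over all probes 2.36%. The median log2 fold change of the 10 receptors was 0.09, against -0.0047 for all genes. At an unadjusted p under 0.05, Nr1i3 and Nr0b2 passed, which makes 2 of 10.

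**Figure D1:**
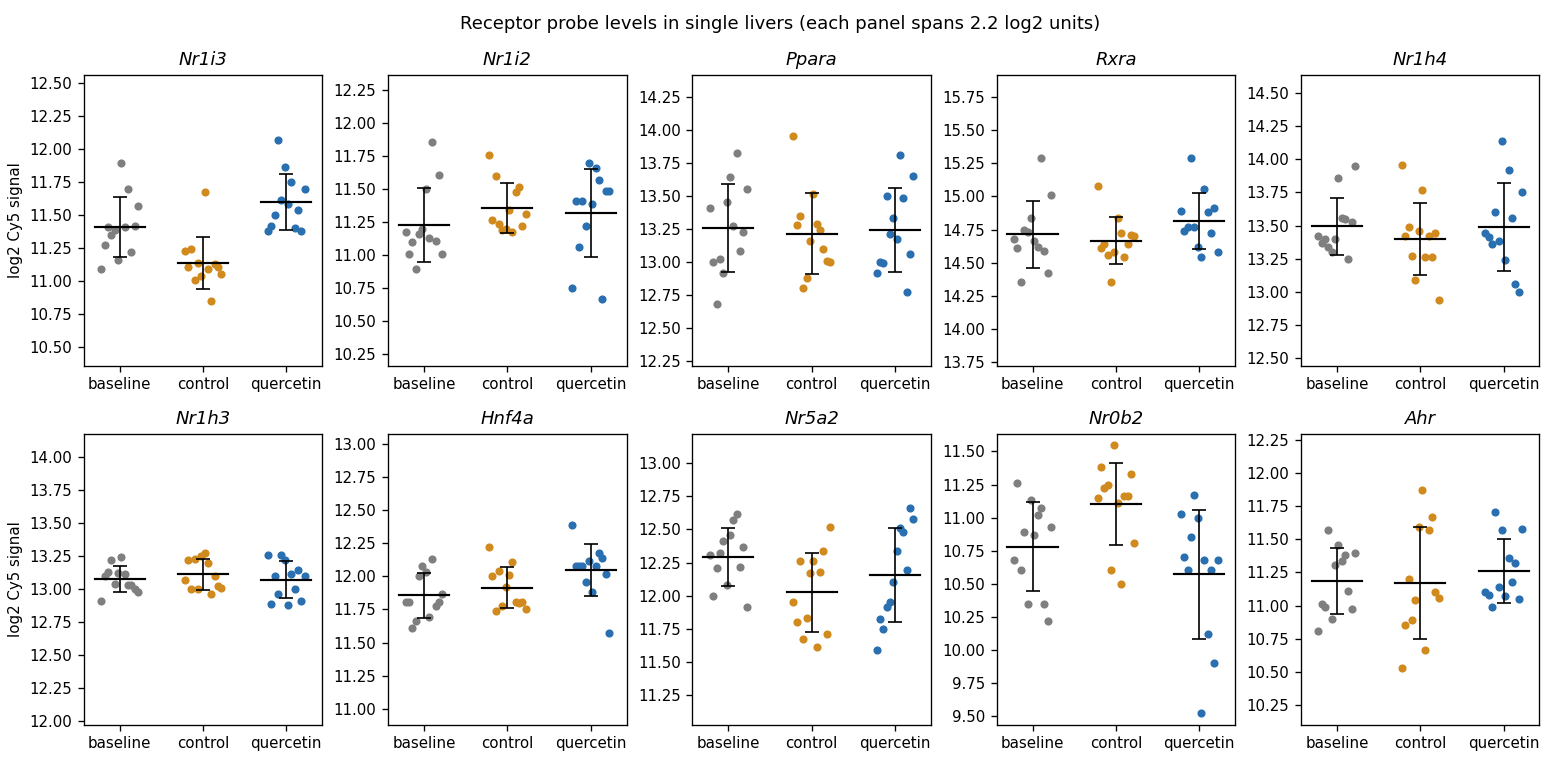
Log2 Cy5 signal of each receptor's brightest probe (y axis) in each of 36 livers by group (x axis), 12 per group, with 1 point per mouse, a line at the mean and bars of 1 SD; every panel spans the same 2.2 log2 units. The quercetin mice of Nr1i3 lie at 11.38 or higher, above all control mice but the one at 11.67, and 3 quercetin mice of Nr0b2 lie below the lowest control mouse.

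Nr1i3, the constitutive androstane receptor, had a lowest, median and highest level of 11.38, 11.56 and 12.07 in the quercetin group. The same values were 10.85, 11.11 and 11.67 in the control group and 11.09, 11.4 and 11.89 in the baseline group. All 12 quercetin mice lay above the control median and 4 of 12 above the highest control mouse. That highest control mouse, replicate 7 at 11.67, was alone in the quercetin range, since the other 11 control mice lay at or below 11.24 and the lowest quercetin mouse at 11.38. The means were 11.60 ± 0.21 and 11.14 ± 0.20 (SD, n = 12 each), a log2 fold change of 0.46 (SE 0.0812, 95% interval 0.29 to 0.63, adjusted p = 0.00231, limma), or 1.37-fold. Within the 9 slides, each of which held mice of all groups, Nr1i3 was higher in the quercetin mice on 8 and lower on 1, with a median difference of 0.43. Without quercetin replicate 2 the log2 fold change was 0.48 (adjusted p = 0.00255, limma), without control replicate 5 it was 0.46 (adjusted p = 0.00257, limma), and without control replicate 1 it was 0.47 (adjusted p = 0.00308, limma). By RT-qPCR, the paper reports a change of Nr1i3 in the same direction that was not significant.

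Nr1i3 was also called between the control and the baseline group, in the other direction. It was the only receptor called of 10 there, against 21% of all genes (13.4% higher and 7.68% lower) and 21.3% of all probes. Of 12 control mice 11 lay below the baseline median and 5 below the lowest baseline mouse. The log2 fold change was -0.27 (SE 0.0831, 95% interval -0.44 to -0.10, adjusted p = 0.022, limma), and the control mice were lower on 7 of 9 slides. With slide as a fixed block the difference was -0.25 (adjusted p = 0.0504, limma) and was no longer called. Between the quercetin and the baseline group Nr1i3 differed by 0.19 (SE 0.0856, adjusted p = 0.152, limma), with 10 of 12 quercetin mice above the baseline median. These comparisons share groups: the same 12 control mice enter both the rise and the fall.

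The probe of Nr1i3 (accession NM_009803) lies on chromosome 1, 173054320 to 173054379 in the mm8 build that the array files use. That of Nr0b2 (NM_011850) lies on chromosome 4, 132825855 to 132825914. The stretches directly upstream of both genes are shown because these 2 receptors had the largest differences between the diet groups and their upstream windows were the only ones of the receptors to hold an E-box, the letters CACGTG, to which clock proteins such as the product of Arntl can bind. They are RefSeq sequences of build GRCm38.p6, plus strand, 5′ to 3′, ended before the annotated start of the gene, with the E-box in capitals.
Nr1i3, chr1:171213720-171213933: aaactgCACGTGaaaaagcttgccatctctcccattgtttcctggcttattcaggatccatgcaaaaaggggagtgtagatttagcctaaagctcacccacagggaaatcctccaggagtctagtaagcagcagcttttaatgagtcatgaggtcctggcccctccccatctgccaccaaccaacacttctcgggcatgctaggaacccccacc
Nr0b2, chr4:133553126-133553375: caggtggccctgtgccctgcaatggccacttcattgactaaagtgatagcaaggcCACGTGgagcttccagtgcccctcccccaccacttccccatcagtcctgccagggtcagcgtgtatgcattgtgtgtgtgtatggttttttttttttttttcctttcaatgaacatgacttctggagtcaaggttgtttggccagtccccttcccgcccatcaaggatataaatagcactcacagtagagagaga

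The E-box of Nr1i3 starts 244 bases before the transcript start used and that of Nr0b2 195 bases before it. For Nr1i3 this transcript start lies downstream of the annotated start of the gene, beyond the end of the stretch shown. The table gave 13 upstream windows of 250 bases for 9 receptors and none for Ahr. The E-box letters are not rare: 6.02% of all 32851 windows hold them on either strand, and 2 of these 13 do. The letters AGGTCA, to which many nuclear receptors bind, occur in windows of Nr1h4, Nr5a2 and Rxra, against 14% of all windows. The letters GCGTG, the core to which Ahr binds, occur in windows of Nr0b2, Nr5a2 and Ppara, against 28.2% of all windows. The D-box letters TTATGTAA or TTATGCAA, to which Dbp binds, occur in none of the 13, against 1.5% of all windows. These are matches of letters only, and the different motifs do not overlap in the windows of Nr1i3 and Nr0b2.

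Nr0b2, the corepressing receptor that bile acids induce through Nr1h4, had a lowest, median and highest level of 9.52, 10.68 and 11.17 in the quercetin group. The values were 10.5, 11.16 and 11.55 in the control group and 10.22, 10.88 and 11.26 in the baseline group. Of 12 quercetin mice 11 lay below the control median and 3 below the lowest control mouse, so the groups overlapped over most of their range. The log2 fold change was -0.53 (SE 0.155, 95% interval -0.85 to -0.21, unadjusted p = 0.00198, adjusted p = 0.0668, limma), which was not called. Over 16 other settings it stayed below 0, from -0.58 to -0.27, with adjusted p from 0.0417 to 0.573 in limma or the methods' test. It was called in 2 of them: without control replicate 5 (-0.58, adjusted p = 0.0417, limma) and with all 36 arrays in 1 fit (adjusted p = 0.0434, limma). Without the 3 arrays apart it was called too (-0.59, adjusted p = 0.0495, limma), and without control replicate 1 it was not (-0.53, adjusted p = 0.0781, limma).

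The spread of Nr0b2 between mice was widest in the quercetin group, with an SD of 0.49 against 0.31 in the control and 0.34 in the baseline group. Its quercetin mice spanned 3.14-fold, against 2.06-fold in both other groups. Between the control and the baseline group Nr0b2 differed by 0.32 (SE 0.124, adjusted p = 0.0627, limma), with 9 of 12 control mice above the baseline median and 3 above the highest baseline mouse. That difference was called without control replicate 5 (0.37, adjusted p = 0.0298, limma) and without the 3 arrays apart (0.38, adjusted p = 0.0286, limma). Between the quercetin and the baseline group it differed by -0.21 (SE 0.158, adjusted p = 0.425, limma).

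Nr1i2, the pregnane X receptor, was measured at 11.32 ± 0.33, 11.36 ± 0.19 and 11.23 ± 0.28 (SD, n = 12 each) in the quercetin, control and baseline group. Quercetin and control differed by -0.04 (95% interval -0.26 to 0.17, adjusted p = 0.882, limma). All 12 control mice lay above the baseline median, but none above the highest baseline mouse, and that difference was 0.13 (adjusted p = 0.323, limma).

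Ppara, the fatty acid sensor, had medians of 13.19, 13.2 and 13.25 in the quercetin, control and baseline group, with ranges of 12.77 to 13.81, 12.8 to 13.95 and 12.68 to 13.82. The 3 groups lay over each other, and 6 of 12 quercetin mice were above the control median. The log2 fold change was 0.02 (SE 0.12, 95% interval -0.22 to 0.27, adjusted p = 0.941, limma), so the interval reached down to 0.858-fold. The array carries the Ppara probe (A_51_P348334) at 10 spots, as it does that of Ahr, which measures the noise between spots of 1 array. Within an array the 10 Ppara spots had a median SD of 0.032, while mice of a group differed with an SD of 0.319. The spread between spots leaves out the error of RNA isolation, labelling and hybridisation, which the spread between mice holds.

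Ahr itself differed by 0.09 between quercetin and control (95% interval -0.18 to 0.36, adjusted p = 0.771, limma) and by -0.02 between control and baseline. Its control mice ran from 10.53 to 11.87, with an SD of 0.42 against 0.24 in the quercetin and 0.25 in the baseline group. The 3 highest control mice lay above every baseline mouse and the 2 lowest below every baseline mouse.

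Rxra, the shared partner, had means of 14.82 ± 0.21, 14.66 ± 0.18 and 14.71 ± 0.25 (SD, n = 12 each) in the quercetin, control and baseline group. The quercetin group differed from control by 0.15 (95% interval -0.01 to 0.31, adjusted p = 0.356, limma), with 9 of 12 mice above the control median. Its dimmer probe gave 0.07 (adjusted p = 0.596, limma). Nr1h4, the bile acid sensor, differed by 0.09 (95% interval -0.15 to 0.33, adjusted p = 0.747, limma), and 6 of 12 quercetin mice lay above the control median. Nr1h3, the oxysterol sensor, varied least, with an SD of 0.10 to 0.14 in the 3 groups and a difference of -0.04 (95% interval -0.16 to 0.07, adjusted p = 0.742, limma). The interval of Nr1h3 was the narrowest of the 10.

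Hnf4a, which maintains hepatocyte identity, had medians of 12.08, 11.87 and 11.81 in the quercetin, control and baseline group. Of 12 quercetin mice 11 lay above the control median, but their lowest mouse, at 11.57, lay below all control mice. The log2 fold change was 0.13 (95% interval -0.01 to 0.28, adjusted p = 0.377, limma), and 0.19 against baseline (SE 0.0736, adjusted p = 0.0888, limma). The other probes of Hnf4a, at means of 9.08 and 8.99 over all arrays, gave 0.08 and 0.07 against control and -0.09 and 0.08 against baseline, so the 3 probes differed in sign there. Nr5a2, which drives bile acid and cholesterol genes, had medians of 12.15, 12.06 and 12.32. Its quercetin and control mice differed by 0.13 (95% interval -0.13 to 0.39, adjusted p = 0.641, limma). Between control and baseline Nr5a2 differed by -0.27 (SE 0.102, adjusted p = 0.0612, limma), with 5 of 12 control mice below the lowest baseline mouse. It was called in 4 of 16 other settings, among them the loess ratios from the scanner files (-0.30, adjusted p = 0.0287, limma).

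**Figure D2:**
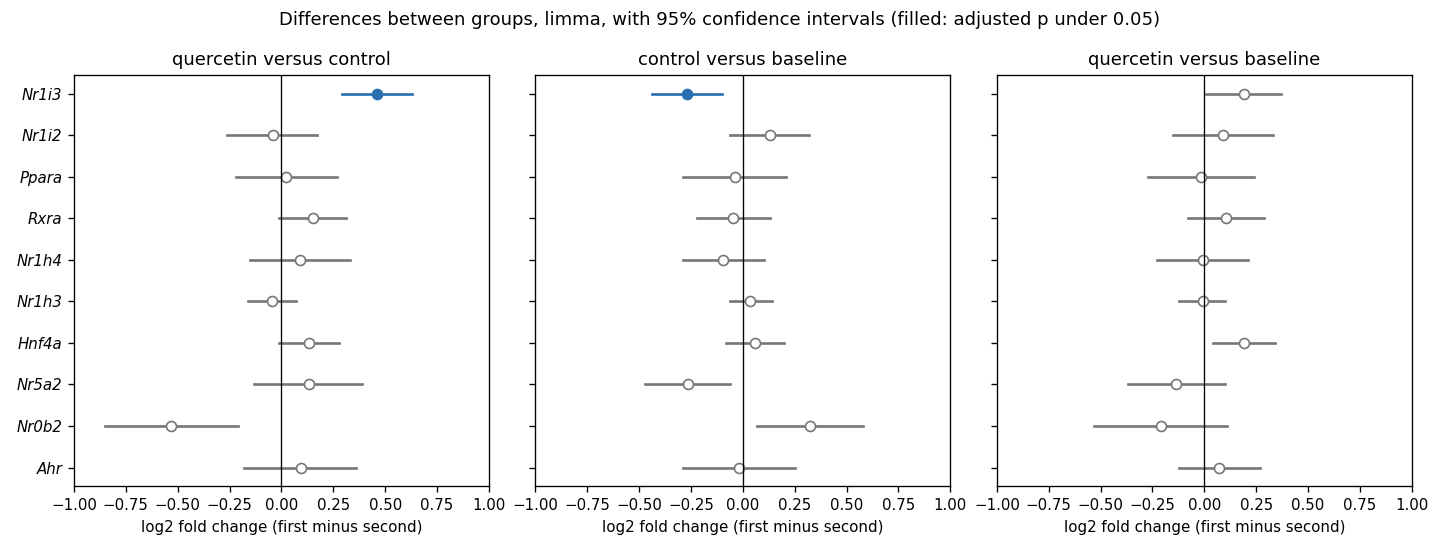
Log2 fold change of each receptor's brightest probe (x axis, first group minus second) with its 95% confidence interval in 3 comparisons of 12 against 12 mice; filled points have an adjusted p under 0.05. Nr1i3 is filled at 0.46 for quercetin versus control and at -0.27 for control versus baseline, and no receptor is filled for quercetin versus baseline.

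Between the quercetin and the baseline group 0 of 10 receptors were called by limma, against 12.9% of all genes (7.45% higher and 5.41% lower) and 11.9% of all probes. At an unadjusted p under 0.05 there were 2, Nr1i3 and Hnf4a, and the methods' t-test called none of the 10 after Benjamini-Hochberg adjustment either. The interval of the difference reached from 0.01 to 0.37 for Nr1i3 and from 0.04 to 0.34 for Hnf4a.

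The genes that these receptors are known to drive were then counted. All gene lists here and below were put together with earlier results of these data known. They hold genes that the paper already reports as changed, such as Por, Cyp4a14, Cyp4a10 and, among the clock genes, Usp2. Their shares called are therefore a description and not independent support. Genes listed as targets of Nr1i3 and Nr1i2 were higher in the quercetin than in the control group for 7 of 23 measured members and lower for 0, with a median log2 fold change of 0.26 against -0.0047 over all genes. The share called was 30.4%, against 2.22% of all genes. Por, which passes electrons to all microsomal cytochromes P450, had medians of 15.58 in the quercetin, 14.46 in the control and 15.15 in the baseline group, and differed by 0.98 (SE 0.153, adjusted p = 0.000785, limma). Cyp2a5 rose by 0.87 (adjusted p = 0.00757, limma) and Cyp2b9 by 0.91 (adjusted p = 0.0475, limma). Abcc3, which exports conjugates, rose by 0.32 (adjusted p = 0.0156, limma). From baseline to control Por fell by 0.59 on the log2 scale (adjusted p = 0.0187, limma), and 3 targets were higher and 4 lower, 30.4% of the 23 against 21% of all genes. Against baseline the quercetin group had 7 higher and 0 lower, 30.4% of the 23 against 12.9% of all genes. They were led by Cyp3a11, a main drug-oxidising P450, at 0.65 (adjusted p = 0.00542, limma). Without the 3 arrays that stood apart, 5 of 23 were higher in quercetin against control, Cyp2b9 no longer being called (0.92, adjusted p = 0.0674, limma). Cyp2b10, the usual reporter of Nr1i3 activity, is not in the authors' table. Its 2 probes had a median Cy5 signal of only 1.37 and 2.16 times background in the quercetin group, and log2 ratios to the pool of 0.01 ± 0.07 and -0.03 ± 0.11 (SD, n = 12). In the control group these ratios were -0.02 ± 0.08 and -0.08 ± 0.12 (SD, n = 12).

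Targets of Ppara were higher in the quercetin than in the control group for 8 of 30 measured members and lower for 0, with a median of 0.21, while Ppara itself differed by 0.02. The share called was 26.7%, against 2.22% of all genes. Cyp4a14, a fatty acid omega-hydroxylase, had medians of 15.29, 12.48 and 12.96 in the quercetin, control and baseline group. It rose by 2.74 (SE 0.371, adjusted p = 0.000241, limma) against control. Its relatives Cyp4a31 and Cyp4a10 rose by 1.57 and 1.31 (adjusted p = 0.00231 and 0.00172, limma). Without the 3 arrays apart, 7 of 30 were higher and 0 lower. Against baseline 9 were higher in the quercetin group and 0 lower, 30% of the 30 against 12.9% of all genes. The Cyp4a, Cyp2a and Cyp2b genes are families of close copies, so a probe may also bind a relative. Between control and baseline 3 Ppara targets were higher and 4 lower, 23.3% of the 30 against 21% of all genes, and 2 higher and 3 lower without the 3 arrays apart. Among them was Fgf21, a liver hormone of fasting, which rose by 1.52 (adjusted p = 2.23e-05, limma).

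Of 15 listed members of the bile acid axis of Nr1h4 and Nr0b2, 1 was higher and 0 were lower in the quercetin group against control. This share was 6.67% against 2.22% of all genes, and the list's median was 0.00222. That 1 gene was Cyp7a1, the rate-limiting enzyme of bile acid synthesis, which Nr0b2 is known to repress. Cyp7a1 had medians of 11.65, 10.77 and 10.9 in the quercetin, control and baseline group and rose by 1.08 against control (SE 0.284, adjusted p = 0.0404, limma). It was not called without the 3 arrays apart (1.00, adjusted p = 0.0777, limma) or by the methods' t-test (adjusted p = 0.0773). Without those arrays the axis had 0 higher and 1 lower, Abcb11, which exports bile acids (-0.40, adjusted p = 0.044, limma), and which the methods' t-test over all arrays did not call (adjusted p = 0.105). Cyp7a1 is also the only called gene among the 15 Nr1h3 targets and among the 19 targets of Hnf4a and Nr5a2, whose medians were -0.07 each. Between control and baseline 5 of 15 Nr1h3 targets were higher and 0 lower, 33.3% against 21% of all genes, while Nr1h3 itself differed by 0.04. Of these, Fasn, which builds fatty acids, rose by 0.84 (adjusted p = 0.0106, limma) and Scd1, which desaturates them, by 0.73 (adjusted p = 0.0112, limma). In the same comparison 2 of 15 genes of the bile acid axis were higher, and 2 of 19 Hnf4a and Nr5a2 targets were lower, the clotting factors F9 and F7. These shares, 13.3% and 10.5%, lay below the 21% of all genes. Without the 3 arrays apart the axis had 2 higher and 2 lower, and the Hnf4a and Nr5a2 targets had 1 higher and 5 lower.

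Of 5 measured Ahr targets 0 were called in the quercetin group against control, by limma or the methods' t-test, with a median of 0.12, and 1 had an unadjusted p under 0.05 in limma. Cyp1a1, the best known of them, is not in the table, and its Cy5 signal had a median of 2.22 times background in the quercetin and 2.31 times in the control group. Between control and baseline Cyp1a2 fell by 0.31 on the log2 scale (adjusted p = 0.0288, limma) and Ugdh rose by 0.33 (adjusted p = 0.00161, limma).

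Of 27 measured partners, chaperones and co-regulators of the receptors, 0 were called between quercetin and control by limma or the methods' t-test, and 4 had an unadjusted p under 0.05 in limma. Against baseline, 5 were higher and 4 lower in the control group, 33.3% of the 27 against 21% of all genes. In the quercetin group 4 were higher and 3 lower, 25.9% against 12.9% of all genes. Hsp90aa1, a chaperone that holds Ahr and Nr1i3 in the cytoplasm, rose by 0.70 in the control (adjusted p = 0.000288, limma) and by 0.88 in the quercetin group (adjusted p = 9.46e-06, limma). Ppargc1b and Ppargc1a, coactivators of Ppara, fell by 0.62 and 0.43 on the log2 scale in the control group against baseline (adjusted p = 0.0072 and 0.0447, limma). Among the other nuclear receptors, Nr1d2, which also belongs to the circadian clock, was higher with quercetin than in the control group by 0.42 (adjusted p = 0.0135, limma). Against baseline, Nr2c2 fell by 0.53 on the log2 scale in the control group (adjusted p = 1.17e-05, limma), and Pparg rose by 0.35 in the quercetin group (adjusted p = 0.0068, limma).

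**Figure D3:**
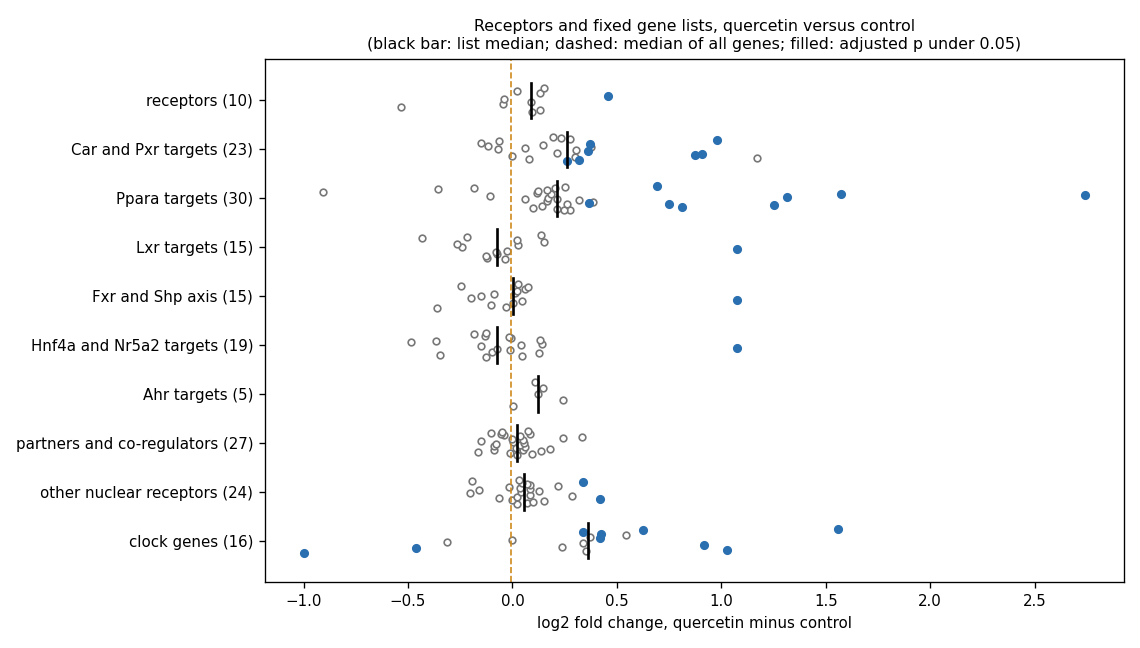
Log2 fold change of quercetin minus control (x axis) for the genes of each list (rows, number measured in brackets), 1 point per gene; filled points have an adjusted p under 0.05, the black bar is the list's median and the dashed line the median of all genes. The 10 receptors lie between -0.53 and 0.46, whereas filled points of the Ppara list reach 2.74 and those of the clock list run from -0.998 to 1.56.

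Clock genes differed between the same groups as Nr1i3. Of 16 measured, 7 were higher and 2 lower in the quercetin than in the control group, also without the 3 arrays apart. They made up 56.2% of the list, against 2.22% of all genes. Usp2 differed by 1.56, Ciart by 1.02 and Arntl by -0.998 (adjusted p = 0.000568, 0.0143 and 0.0034, limma). Dbp, a clock output factor, rose by 0.92 (adjusted p = 0.00741, limma). Against baseline the control group had 1 higher and 2 lower, 18.8% of the 16 against 21% of all genes, and 3 higher and 6 lower without the 3 arrays apart. The quercetin group had 0 of 16 called against baseline by limma or the methods' t-test, with 2 at an unadjusted p under 0.05 in limma. Over all genes 12.9% were called there by limma. Baseline mice were spread most widely, with an SD of 0.79 for Arntl and 1.06 for Dbp, whose levels ran from 13.75 to 16.55. The SDs of Arntl and Dbp were 0.46 and 0.55 in the control and 0.53 and 0.45 in the quercetin group. Such a spread makes calls against baseline harder, so their absence does not show equal clock gene levels. Control replicate 7, the control mouse with the highest Nr1i3 level, also had the lowest Arntl level of its group, 7.8. The time of day at which each mouse was killed is not given in the sources used here. With the level of Arntl as a covariate, an alternative chosen after seeing the data, the log2 fold change of Nr1i3 in quercetin against control was 0.26 (SE 0.107, adjusted p = 0.231, limma). In that fit 1 probe of the whole table was called. Against baseline the difference of the control group became -0.18 (adjusted p = 0.15, limma). Arntl itself differed between quercetin and control mice, so in that comparison this fit cannot separate Arntl from the diet. The part of the clock in these differences was not tested.

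**Figure D4:**
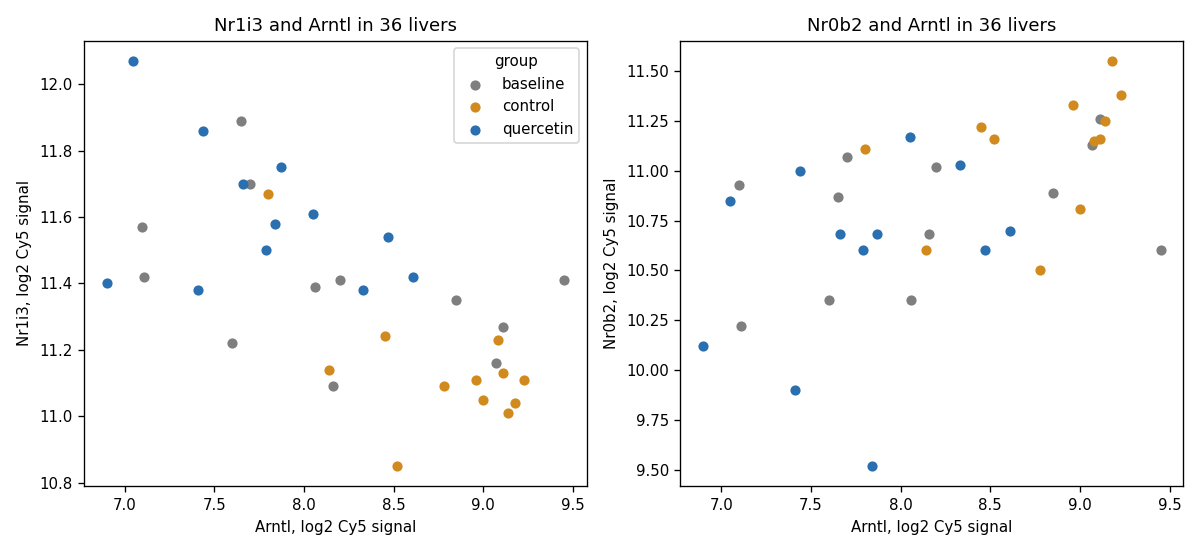
Log2 Cy5 signal of Nr1i3 (left, y axis) and Nr0b2 (right, y axis) against that of the clock gene Arntl (x axis) in 36 livers, 1 point per mouse, coloured by group. Control mice lie at high Arntl (7.8 to 9.23) and low Nr1i3 (10.85 to 11.67), and quercetin mice at lower Arntl (6.9 to 8.61) and higher Nr1i3 (11.38 to 12.07). Baseline mice spread widely over Arntl (7.1 to 9.45), with Nr1i3 at 11.09 to 11.89.

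Markers of the liver's cell types were summed on the linear signal scale. The 7 hepatocyte markers, led by Alb, had medians of 1550000, 1630000 and 1690000 in the quercetin, control and baseline group, with overlapping ranges, and 0 of 7 were called between quercetin and control, with 0 at an unadjusted p under 0.05 in limma. Alb itself differed by -0.01. Macrophage, stellate and lymphoid markers had 0 called of 8, 8 and 5 in limma, and also 0 at an unadjusted p under 0.05. Over all genes 2.22% were called in this comparison. Of 8 endothelial markers 1 was higher, Pecam1 by 0.38 (adjusted p = 0.00734, limma). Of 6 cholangiocyte markers 1 was lower, Sox9, by -0.60 (adjusted p = 0.00053, limma). That list had a summed median of 14000 in the quercetin, 18400 in the control and 14000 in the baseline group, with ranges of 11000 to 17900, 12500 to 27200 and 10800 to 25800. Between control and baseline 4 of 6 cholangiocyte markers were higher, 1 of 7 hepatocyte markers, Cps1, was lower, 1 of 8 stellate markers was higher, and the endothelial list had 1 higher and 1 lower. These shares were 66.7%, 14.3%, 12.5% and 25%, against 21% of all genes. Against baseline the quercetin group had 3 of 7 hepatocyte markers lower, 42.9% against 12.9% of all genes. In the other 5 lists 0 markers were called there by limma or the methods' t-test. Macrophage markers had 0 of 8 called against baseline in either group, but without the 3 arrays apart 4 of them were higher among control and 6 among quercetin mice. For lymphoid markers 0 of 5 became 3 in each. The part of these shifts in the receptor values was not tested.

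The receptors were next compared with each other between livers, within each group of 12 mice, so that differences between the groups played no part. Spread within a group was not removed, and Arntl and Dbp were spread most widely among the baseline mice. Of the 135 relations, from 45 pairs in 3 groups, 106 were positive, 28 had an unadjusted permutation p under 0.05, and 1 had an adjusted p under 0.05. That one was Nr1i3 with Ahr in the quercetin group, with Pearson's r of 0.87 (permutation p = 0.00036, adjusted p = 0.0486) and Spearman's rho of 0.73 (permutation p = 0.0089, adjusted p = 0.265). Quercetin replicate 4 was highest for both genes, and without the 2 mice farthest from the median of Nr1i3 the r was 0.68 over 10 mice. In the baseline and the control group r lay between 0.26 and 0.53, and a difference in r between groups was not tested. No count of relations, here or below, was set against pairs of other genes, whose values also share arrays and normalization. Whether the receptors ran together more than other genes was therefore not tested.

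No slide held enough mice of a group for a correlation within it. With values centred on slide means, which also hold mice of the other groups, r of Nr1i3 and Ahr in the quercetin group was 0.64 (permutation p = 0.0259, adjusted p = 0.175) and no longer passed. There 8 other relations passed, the smallest p belonging to Ppara with Nr1h4 in the control group (r 0.87, permutation p = 0.00012, adjusted p = 0.0162).

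Ppara and Nr1h4 had a positive correlation in every group, with r of 0.84 in the control (permutation p = 0.00077, adjusted p = 0.052), 0.72 in the quercetin (permutation p = 0.00845, adjusted p = 0.152) and 0.65 in the baseline group (permutation p = 0.0213, adjusted p = 0.221). None of these passed the adjustment. Spearman's rho was 0.73, 0.72 and 0.70, and without the 2 mice farthest from the median r was 0.77, 0.61 and 0.80. Nr1i2 with Ppara gave 0.61 to 0.76 and Nr1i3 with Nr1h4 0.53 to 0.73 over the 3 groups. In all, 25 of 45 pairs were positive in all 3 groups. A single pair, Nr1i2 with Nr1h3, was negative in all 3, with r from -0.38 to -0.14.

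The r of Hnf4a with Ppara was 0.68 in the baseline (permutation p = 0.0158, adjusted p = 0.178) and 0.57 in the control group (permutation p = 0.0478, adjusted p = 0.237). In the quercetin group it was -0.41 (permutation p = 0.185, adjusted p = 0.499). Without the 2 mice farthest from the median of Ppara these were 0.40, 0.55 and -0.19. None passed the adjustment, and a difference between groups was not tested. Nr0b2 with Nr1h3 had r of 0.74 in the quercetin group (permutation p = 0.0045, adjusted p = 0.121), and this reached 0.85 over 11 mice without quercetin replicate 2 (permutation p = 0.00082, adjusted p = 0.0369).

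**Figure D5:**
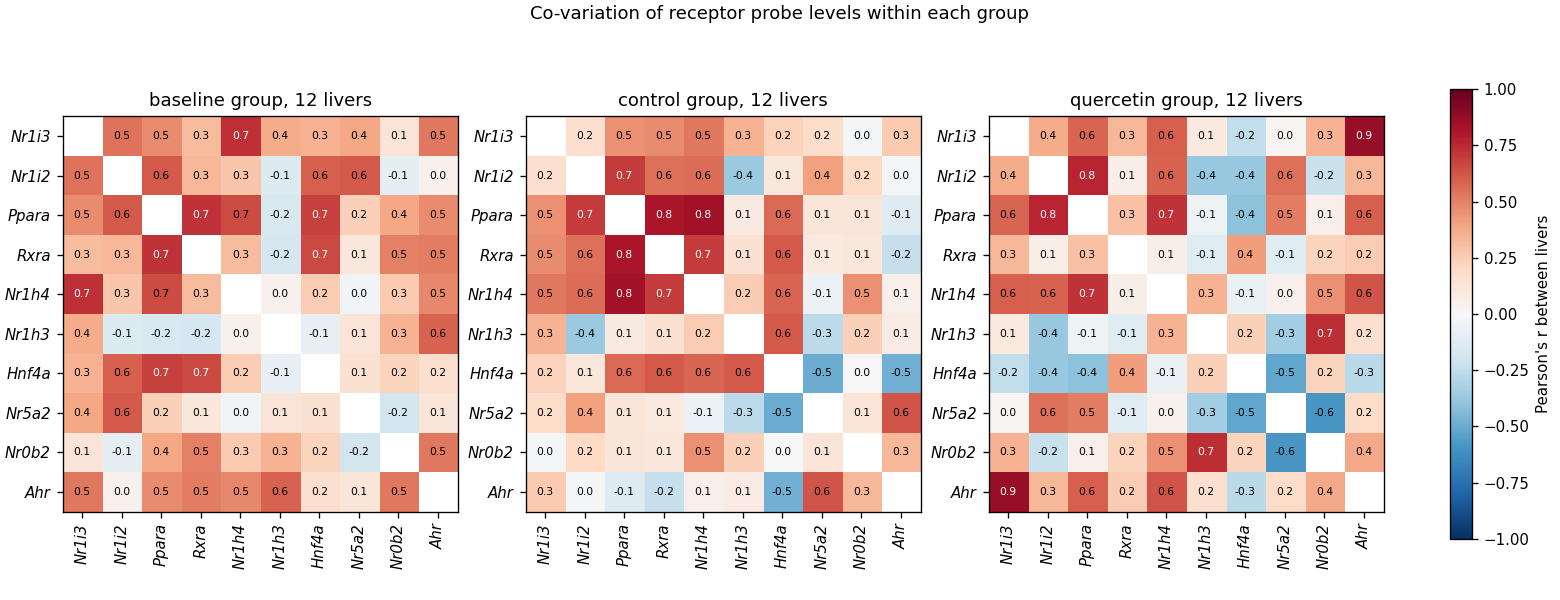
Pearson's r between livers for each pair of receptors (rows and columns, brightest probes) in the baseline, control and quercetin group of 12 mice each; red is positive, blue negative, and numbers are r to 1 decimal. Ppara with Nr1h4 is red in all 3 panels (0.65 to 0.84), and Nr1i3 with Ahr is darkest in the quercetin panel (0.87).

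Relations of the receptors with Arntl, Dbp and Por were added after seeing the data. Of these 90, 10 had an unadjusted permutation p under 0.05 and 2 an adjusted p under 0.05. Por ran with Nr1i3 in the control group (r 0.77, permutation p = 0.00064, adjusted p = 0.0441, rho 0.77), with r of 0.56 without the 2 mice farthest from the median. Dbp ran with Nr1i2 in the quercetin group (r 0.83, permutation p = 0.00098, adjusted p = 0.0441, rho 0.74), with r of 0.68 without them. Centred on slide means they were 0.89 and 0.84. Neither passed without quercetin replicate 2 (adjusted p = 0.0576 and 0.0612, permutation test) or without control replicate 5 (adjusted p = 0.0526 each, permutation test), nor by Spearman's rho (adjusted p = 0.246 each, permutation test). Arntl with Nr1i3 was negative in all 3 groups, at -0.43, -0.58 and -0.39 in the baseline, control and quercetin group, with permutation p of 0.164, 0.0532 and 0.21 (adjusted p = 0.449, 0.35 and 0.449). Without the 2 mice farthest from the median of Arntl, r was -0.46, 0.12 and -0.62, so the control value changed sign.

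Over all 36 livers, after each group's mean was removed, the genes whose level ran most closely with each receptor were listed among 13041 others, as a description. Nr1i3 ran with Eci3 (r 0.76), Rpain (0.75) and Hadhb (0.73), of which Eci3 and Hadhb belong to fatty acid oxidation. Nr1i2 ran with Dpm1 (0.77), Abcc2 (0.74), an exporter of conjugated bile pigments and drugs, and Clmn (0.73). Ppara ran with Fam160b1 and Prox1 (0.77 each) and Klf15 (0.76), of which Prox1 and Klf15 are hepatic transcription factors. Nr1h4 had the highest value of all, 0.88 with Dcun1d1, followed by Cutc and Akr1c13 (0.80 each).

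Nr0b2 ran with Epha2 (0.78), a receptor tyrosine kinase, and with Efna1 (0.76), a ligand of Eph receptors, and with Ccnf (0.76). Ahr ran with Fam214a (0.76), Spata2l (0.75) and Tsc22d3 (0.72), a gene that glucocorticoids induce. Rxra ran with Exosc5 (0.84), Nup214 (0.83) and Plpp3 (0.81), and Nr5a2 with Sox6 and Taok3 (0.80 each) and Tnrc6a (0.75). Nr1h3 ran with Phkg2 (0.78), Mrpl10 and Ccdc124 (0.75 each). Hnf4a had the lowest such values, with Ewsr1 (0.65), Polrmt (0.64) and Pdap1 (0.63). All these values share arrays and the reference pool.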

How the data were processed

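Liver RNA of 36 mice (12 per group) was hybridised to Agilent 4x44K mouse arrays, 9 slides of 4. The authors extracted spot intensities with Feature Extraction 10.5.1.1, per the file headers, and deposited scanner files with the median intensity of spots and background and with log10 ratios of Cy5 over Cy3. Their deposited table holds log2 Cy5 signals of 23256 spots. The paper refers to another text for its normalization. The log2 values could be rebuilt from the scanner intensities as Cy5 minus the deviation of Cy3 from its mean over arrays, set to 1 median, without background subtraction (median absolute difference 0.02, lowest r over arrays 0.99989). This subtracts the pool's variation from each spot and compares arrays relative to the median.

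Spots of a probe were averaged. Probes were named by accession (16104) or by the name in the files (3472), and 2205 have no symbol. Groups came from the titles. Pairs of groups were compared with limma 3.58.1 (lmFit and eBayes, two-sided, 24 arrays, Benjamini-Hochberg over 21781 probes) in R 4.3.3. Correlations used 100000 permutations (two-sided), adjusted over all pairs and groups (smallest possible p 1e-05). In data simulated for quercetin versus control with 21781 probes, 89.2% of the 102 probes changed by 0.5 and 98% of the 98 changed by 1 were recovered. Replicate numbers pair no animals. The labels describe 12 mice per group.

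The members and lists were chosen with earlier results of these data known. Of 237 listed genes 206 are in the table, 26 are on the array but not in it, and 5 were not matched. Named were the members, up to 3 called genes of largest change per list and comparison, Por, Cyp4a14, Cyp2b10, Cyp7a1, Cyp1a1, Arntl and Dbp, and the 3 genes most like each member. Alternatives were loess ratios with normexp background (offset 50), the log10 ratios, median centring, quantile normalization, all non-control probes, a filter on dim probes (18 arrays), the methods' t-test, 1 fit of 36 arrays, slide or replicate number as a block, the mean of a gene's probes, and leaving out arrays. Leaving out control replicates 1 or 5 or baseline replicate 4 and the Arntl covariate were chosen after seeing the data. The paper names another C57BL/6J substrain and a shorter adaptation than the labels, which were followed. Serum and RT-qPCR data were not analysed here, and 1 listed gene is not reported here. Sequences are from RefSeq (GRCm38.p6). Figures were drawn with matplotlib 3.10.9.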

Additional observations from a re-analysis of the deposited data

How the results depend on the processing

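Of the single receptor values recomputed over 15 or 16 settings per comparison, 456 kept their side of the threshold, 9 passed only in the alternative, 5 only in the reported fit, and 0 called values changed sign. Nr1i3 in quercetin versus control was above 0 in all 16 settings (0.26 to 0.51) and called in 14. With median centring of the scanner ratios 0 receptors and 77 probes were called there (Nr1i3 0.42, adjusted p = 0.225, limma), and 396 probes were called in quercetin versus baseline; in control versus baseline Nr0b2 was called instead of Nr1i3 (0.45, adjusted p = 0.0153, limma). This setting moved the median of all probes by -0.07 and 0.10 in the first 2 comparisons, and turned the split of control versus baseline to 3086 higher and 545 lower against 2384 and 2261. With slide as a fixed block 210 probes were called in quercetin versus control, and 0 receptors in control versus baseline. With Arntl as a covariate 0 receptors and 1 probe were called in quercetin versus control, and 0 receptors in control versus baseline. Quercetin versus control had 2 receptors called with all 36 arrays in 1 fit and without control replicate 5, in both the second being Nr0b2. Control versus baseline had 2 called with the loess ratios, also over all non-control probes, with the log10 ratios and with quantile normalization, the second being Nr5a2, and 2 without control replicate 5, the second being Nr0b2. Leaving out quercetin replicate 2, control replicate 1 or baseline replicate 4 changed no call of a receptor. Correlated pairs numbered 0 with loess ratios, quantile normalization or Spearman's rho, 3 without quercetin replicate 2, and 8 with values centred on slide means, against 1 reported. The causes of these shifts were not tested.

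The replicate numbers pair no animals by the labels, and mice of the same number did not deviate together (median r -0.01, 0.06 and 0.03 over 12 pairs in the 3 comparisons, with 3, 4 and 4 pairs over 0.1). With a replicate block 1, 2 and 0 receptors and 360, 4636 and 2372 probes were called in quercetin versus control, control versus baseline and quercetin versus baseline, the second receptor being Nr0b2 (0.32, adjusted p = 0.0458, limma). Differences as small as those of most receptors lie near the limit of 12 against 12 arrays: the SE for a receptor was 0.0491 to 0.158 by brightest probe, and targets near background such as Cyp2b10 have no usable value.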
